A study of Drosophila melanogaster with 2 samples.

Results

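Insulator and promoter-binding factors are proteins of the fly genome that bind domain borders or promoters, and 10 of the genes that encode them were examined as places where the CG43689 protein was itself recovered. The genes were Chro, Cp190, Trl, pzg, Dref, CTCF, su(Hw), BEAF-32, M1BP and mod(mdg4), chosen by name out of 13945 protein-coding genes on the chromosome arms. Every peak summit in the gene body or within 2 kb on each side was collected for each of them. The samples were whole Drosophila melanogaster embryos aged 8 to 24 h from a transgenic strain that expresses CG43689 fused to eGFP. Chromatin was sonicated to fragments of 200 to 800 bp and precipitated with an anti-GFP antibody according to one label, although another label field names CG43689 as the antibody. The 2 samples were biological replicates of 1 group, both carried the tagged transgene, and no control library was analysed here. Whole embryos mix many cell types, so a weak peak in all cells and a strong peak in a few cannot be told apart.

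The deposited data were lists of peaks on the dm6 assembly rather than reads, so the depth of each library is unknown. The main list, made from both replicates together and thresholded by the irreproducible discovery rate, held 2088 peaks with a median signal of 88.1. They were drawn from a ranked list of 151546 candidate regions with a median signal of 18.6. A conservative pooled list held 2048 peaks, and the lists of replicate 1 and replicate 2 held 1253 and 1265 peaks. Signal is the peak height measure of the deposited files, and a rank of 1 is the highest signal of a list. Signals were read only within a list, because their scale differs between lists. The deposited score of a peak runs up to 1000, and no peak of the main list had a score under 830.

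Insulators limit the contacts between enhancers and promoters, and in flies several DNA-binding proteins each recognise their own sequence and recruit shared cofactors. Su(Hw), CTCF and BEAF-32 bind DNA at insulators, while Cp190 and Mod(mdg4) are BTB-domain proteins that join such complexes. Dref, M1BP and the GAGA factor encoded by Trl bind core promoter elements or GA-rich promoter DNA, and Chro and pzg encode Chromator and Putzig, partners found at the interbands of polytene chromosomes. The labels give no role of CG43689 in these complexes.

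DNA at or near most of the summits is shown, because base composition and matches to these factors' own recognition sequences are described below. Each sequence is from the RefSeq Release 6 genome (dm6 coordinates), written 5′ to 3′ on the strand of the named gene, in lower case. Capitals mark a match to one of the short motifs searched, and a sequence with no capitals holds no match. Of DNA in untranslated regions, only a short stretch around a match is shown. The stretches of pzg and of the second mod(mdg4) summit lie beside the summit and do not include it. The remaining Trl summits are not shown. Base composition below is that within 50 bp of each summit, not that of the stretches printed here.
Cp190, chr3R:15275301-15275381, minus strand: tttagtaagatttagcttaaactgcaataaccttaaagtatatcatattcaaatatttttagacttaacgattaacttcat
Trl, strongest summit, chr3L:14759483-14759563, minus strand: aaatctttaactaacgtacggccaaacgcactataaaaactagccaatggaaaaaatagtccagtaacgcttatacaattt
mod(mdg4), strongest summit, chr3R:21378717-21378797, minus strand: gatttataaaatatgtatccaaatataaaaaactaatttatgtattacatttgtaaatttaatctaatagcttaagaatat
mod(mdg4), weakest main summit, chr3R:21373990-21374070, minus strand: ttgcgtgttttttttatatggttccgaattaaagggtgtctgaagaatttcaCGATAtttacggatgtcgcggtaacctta
Dref, chr2L:9967270-9967312, minus strand: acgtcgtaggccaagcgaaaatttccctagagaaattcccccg
M1BP, chr3R:8732019-8732090, minus strand: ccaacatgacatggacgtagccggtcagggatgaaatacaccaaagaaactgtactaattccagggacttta
Chro, chr3L:22878880-22878908, minus strand: ttagtttaaagcTATCGacaggcaataca
pzg, chr3L:21285908-21285936, plus strand: aaataattacgtTATCGtaatgaacggca
mod(mdg4), second summit, chr3R:21365421-21365450, minus strand: taccaataccaaTATGCATAttttgctata
These stretches range from the mod(mdg4) sequence, with 69 A or T among 81 bases, to the Dref sequence, with 21 among 43.

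CG43689 was recovered in the main list at 7 of the 10 genes: Chro, Cp190, Trl, pzg, Dref, M1BP and mod(mdg4). The same rule called 20.0% of the 12859 protein-coding genes with a candidate in their window. Within 500 bp of an annotated start site of the gene itself, a main summit was present at 6 of the 9 genes with a candidate there, Chro, Cp190, Trl, pzg, Dref and M1BP, against 11.2% of 10423 protein-coding genes. The 10th gene, mod(mdg4), had no candidate near its start site in the ranked list that the main list was drawn from. Replicate 2 had weak candidates there, the nearest 88 bp away with a signal of 5.39. CTCF, su(Hw) and BEAF-32 had no main summit. No test was made over these counts, because the genes were chosen with results of these data known.

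Together the 7 genes held 12 main summits, and for 6 of them the same gene had a start site no more than 500 bp away. Chro, Cp190, pzg, Dref and M1BP had 1 each, Trl had 4 and mod(mdg4) had 3. The windows of all 10 genes cover 108407 bp and held 127 ranked candidates, or 117 per 100 kb, near the 111 per 100 kb of the chromosome arms. Main summits were at 11.1 per 100 kb of these windows and at 1.54 per 100 kb of the arms. Of the 127 candidates, 9.45% were in the main list, compared with 1.39% of all ranked summits on the arms. The arms include DNA outside gene windows, and neither value was computed over the windows of other genes. Trl and mod(mdg4) weigh heavily in both values, and the genes were chosen with results known.

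**Figure D1:**
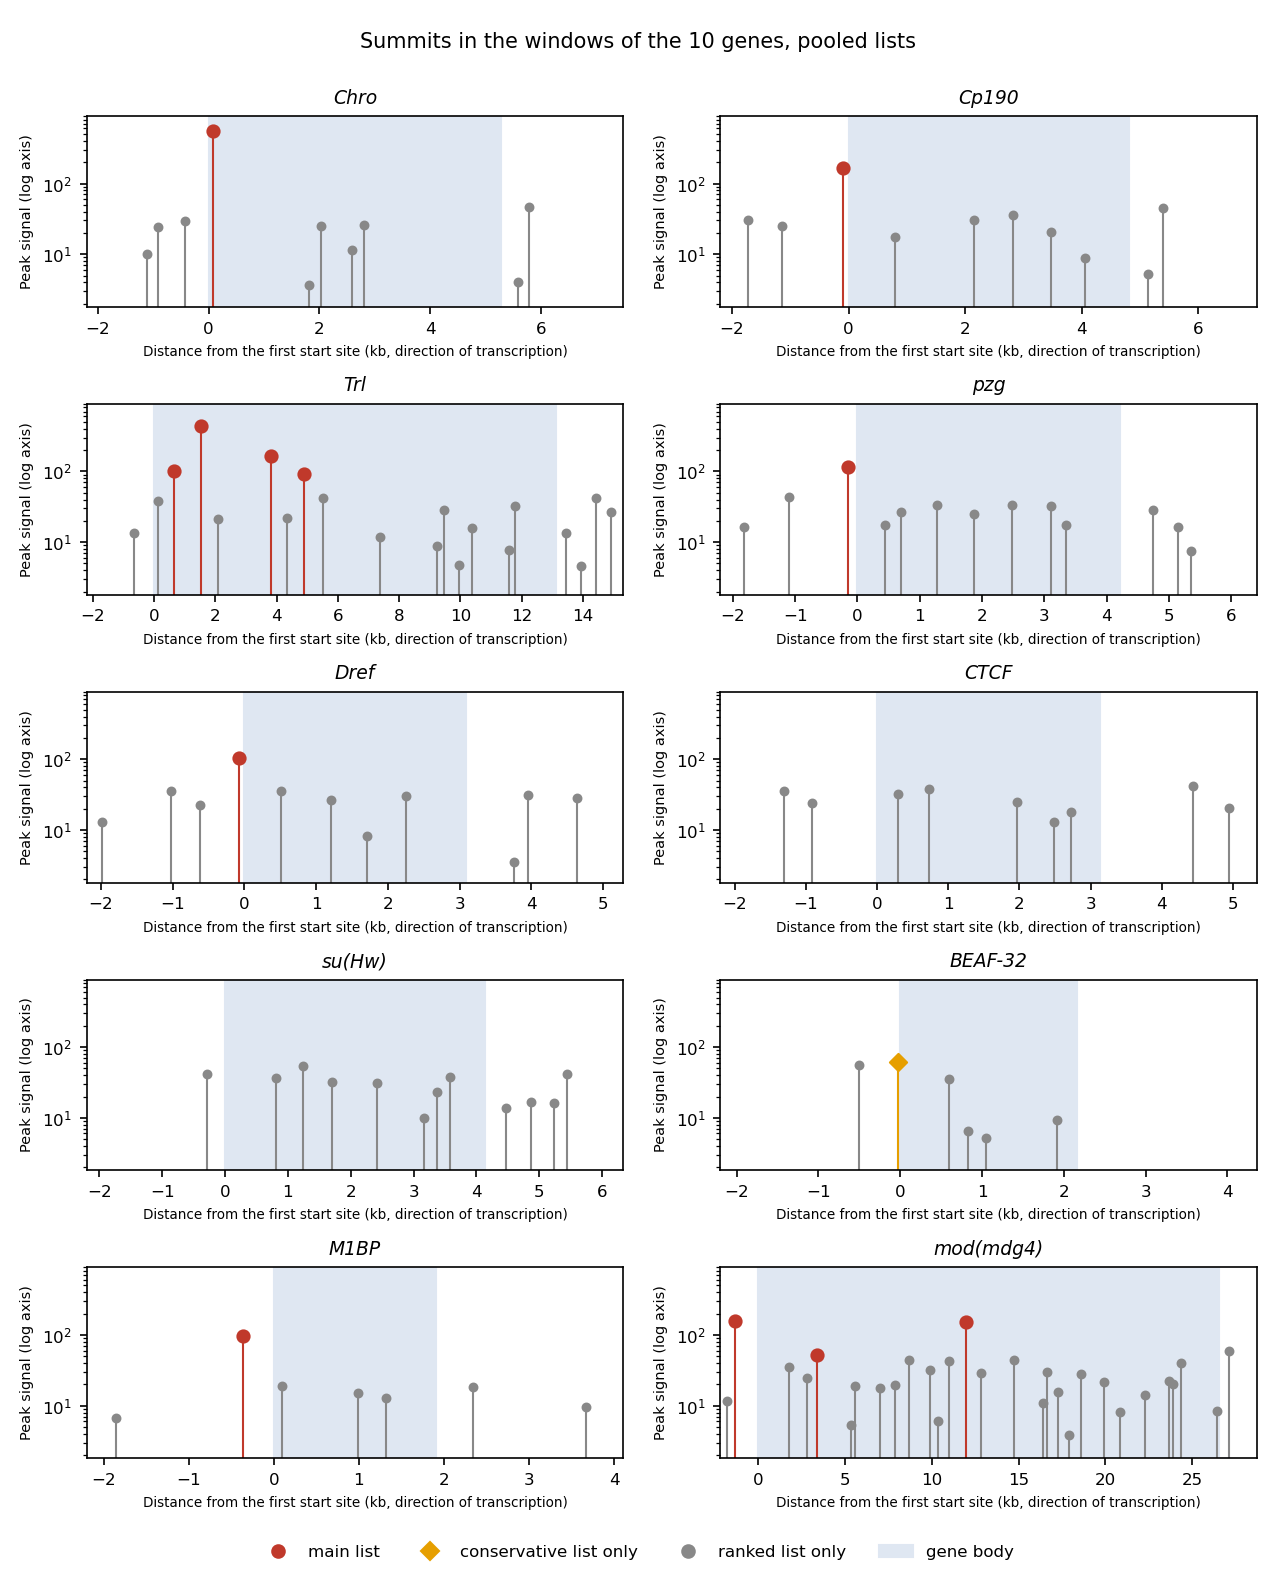
Summits in the windows of the 10 genes: each panel gives distance from the first start site in kb along the direction of transcription (horizontal) and pooled peak signal on a log axis (vertical), with the gene body shaded, main summits in red, the summit present in the conservative but not the main list as a yellow diamond, and other ranked candidates in grey. At 5 genes a single red summit stands at the start site over grey candidates of signal 46.0 or less, Trl has 4 red summits in the first part of the gene, and CTCF, su(Hw) and BEAF-32 have none.

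Chro (FBgn0044324, 3L, 22873702 to 22878984, minus strand) had the strongest summit of the 10 genes. Chromator is a chromodomain protein of interband chromatin. The peak (3L, 22878802 to 22878998) had a signal of 549, rank 23 of 2088, with its summit in the 5' UTR, 86 bp downstream of the start site. In replicate 1 the signal was 287 and in replicate 2 it was 268, ranks 19 of 1253 and 29 of 1265 in the thresholded lists, so both replicates placed it near the top. The next strongest of the 10 candidates in the Chro window had a signal of 46.0, rank 5054 of the ranked list. The gene has 5 annotated transcripts from 3 start sites. The start site of Ssl1, which encodes a TFIIH subunit, lies 105 bp away on the opposite strand, and the summit was 191 bp upstream of it. Among the 1166 protein-coding genes with a main summit at a start site, whose strongest signals had a median of 104, Chro was in place 22.

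pzg (FBgn0259785, 3L, 21286099 to 21290310, plus strand) encodes Putzig, a zinc-finger protein found in complexes with Chromator and with Dref. Its peak (3L, 21285800 to 21286099) had a signal of 117, rank 630, with the summit 149 bp upstream of the pzg start site. Signals in replicates 1 and 2 were 49.7 and 66.3, at ranks 847 of 1253 and 548 of 1265. The peak was thus thresholded in both replicates, in the weaker part of the first list and near the middle of the second. The nearest start site was that of CG12974, a gene on the opposite strand, with the summit 12 bp inside that gene. Of the 13 candidates in the pzg window, the next strongest had a signal of 43.8.

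Cp190 (FBgn0000283, 3R, 15270432 to 15275241, minus strand) encodes a BTB zinc-finger cofactor that several DNA-binding insulator proteins recruit. The peak (3R, 15275191 to 15275490) had a signal of 168, rank 307, and its summit was 100 bp upstream of the Cp190 start site and 181 bp upstream of that of CG4338, on the opposite strand. In replicate 1 the signal was 105, rank 201 of 1253 in the thresholded list and 209 of 116767 in the ranked list. In replicate 2 the candidate had a signal of 56.3, rank 779 of 121214, and a score of 533, and it was not in the thresholded list. The call at Cp190 therefore held in the pooled lists and in replicate 1 but not in replicate 2 alone.

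Dref (FBgn0015664, 2L, 9964147 to 9967229, minus strand) encodes the factor that binds the DNA replication-related element, and its summit nearly coincided with the start site of another gene. The peak (2L, 9967160 to 9967459) had a signal of 104, rank 778, with the summit 81 bp upstream of Dref and 3 bp upstream of RpL13, a ribosomal protein gene on the opposite strand. Signals were 60.7 in replicate 1, rank 590 of 1253, and 48.0 in replicate 2, rank 990 of 1265. Both replicate lists thus held the peak, at a lower place in replicate 2, where its score was 885. The other 10 candidates in the Dref window had signals of 35.6 or less.

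M1BP (FBgn0037621, 3R, 8729790 to 8731698, minus strand) encodes the zinc-finger factor that binds the core promoter element Motif 1. Its peak (3R, 8731909 to 8732208) had a signal of 96.3, rank 904, with the summit 361 bp upstream of M1BP and 32 bp upstream of CG8202, on the opposite strand. In replicate 2 the signal was 61.1, rank 646 of 1265 in the thresholded list and 669 of 121214 in the ranked list. In replicate 1 it was 31.9, rank 2200 of 116767, with a score of 376, and the candidate was not in the thresholded list. M1BP was therefore called in replicate 2 and in the pooled lists, not in replicate 1 alone. The other 6 candidates in its window had signals of 19.2 or less.

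A neighbour's start site close by on the opposite strand was common to these 5 genes. Chro, Cp190, pzg, Dref and M1BP each have a protein-coding start site on the opposite strand within 1000 bp upstream, at 105, 281, 137, 84 and 393 bp. Of all 10 genes, 7 have such a neighbour, since Trl has Mgat4a at 979 bp and su(Hw) has Polr2I at 500 bp, and so do 5052 (36.2%) of the 13945 protein-coding genes. At pzg, Dref and M1BP the neighbour's start site was nearer to the summit than the gene's own. When a summit was given only to the gene with the nearest protein-coding start site, an assignment chosen after the data were seen, 3 of the 9 genes kept one, Chro, Cp190 and Trl, and the share of all such genes was 8.06%. A peak list cannot tell which gene of such a pair a summit belongs to.

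**Figure D2:**
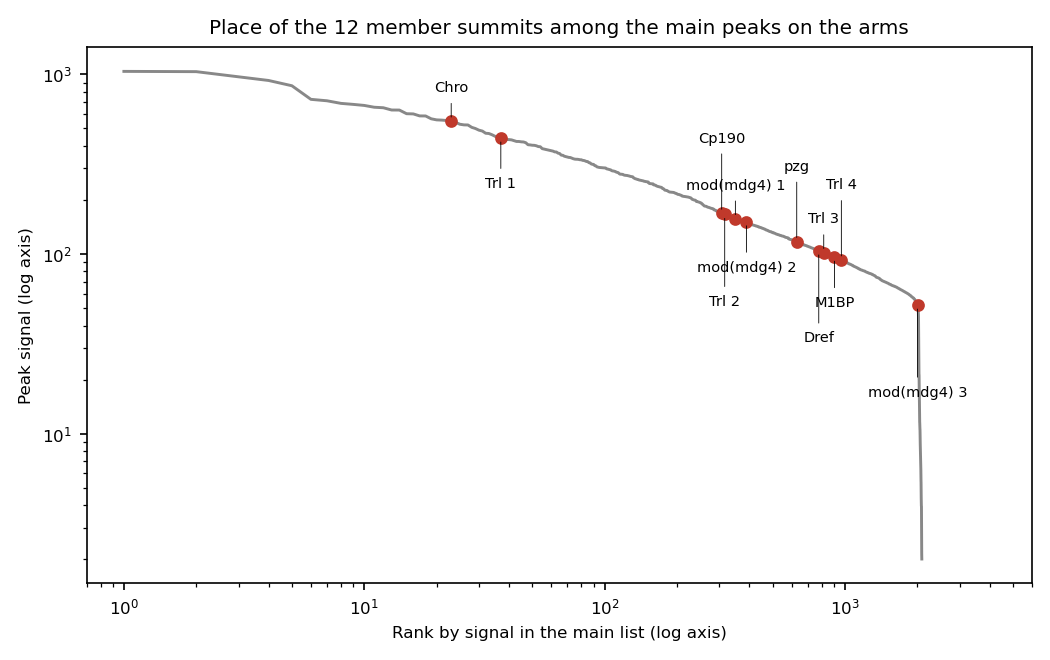
Place of the 12 summits among the main peaks on the chromosome arms: rank by signal (horizontal, log axis) against pooled peak signal (vertical, log axis), with the grey line for all main peaks and a red point for each summit of the 10 genes. Chro (rank 23) and the strongest Trl summit (rank 37) stand near the top, 9 summits lie between ranks 307 and 966, and the weakest mod(mdg4) summit is at rank 2004.

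Trl (FBgn0013263, 3L, 14747929 to 14761049, minus strand), which encodes the GAGA factor, had 4 main summits, more than any of the other 9 genes. All 4 were in the conservative list and in both replicate lists. The strongest (3L, 14759415 to 14759624) had a signal of 444, rank 37, and lay in an intron 1526 bp downstream of the nearest Trl start site. Its signal was 204 in replicate 1, rank 45 of 1253, and 239 in replicate 2, rank 35 of 1265. It was thus a strong peak in each replicate, outside the promoter range.

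The second Trl summit was the one at a promoter. It lay in the 5' UTR, 105 bp downstream of the start site of shorter Trl transcripts (3L, 14757081 to 14757380; signal 167, rank 316), and had signals of 85.4 and 78.1 in replicates 1 and 2. The third (3L, 14760243 to 14760542; signal 102, rank 816) was intronic, 656 bp downstream of a start site, with signals of 53.5 and 45.5. The fourth (3L, 14755989 to 14756288; signal 92.5, rank 966) was intronic too, 1197 bp downstream of a start site, with signals of 46.6 and 44.1. The order of the 4 summits by signal was the same in the pooled list and in each replicate. Trl has 10 transcripts from 4 start sites, and its window of 17121 bp is longer than the median of 6166 bp over protein-coding genes. Among the 13945 genes, 44 (0.316%) had 4 or more main summits in the window and 80 had 3. Of the other factor genes described below, shep had 5, and JIL-1 and Nup98-96 had 3 each. The other 16 candidates in the Trl window had signals of 42.2 or less.

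mod(mdg4) (FBgn0002781, 3R, 21350846 to 21377401, minus strand) had 3 main summits, none of them within 500 bp of its single start site. Its product is a family of BTB proteins, one of which belongs to the gypsy insulator, and many of its messenger RNAs are joined by trans-splicing to 3' exons that are transcribed separately and annotated as pre-mod(mdg4) genes. The strongest summit (3R, 21378607 to 21378906; signal 157, rank 350) was 1356 bp upstream of mod(mdg4) and 220 bp upstream of tin, the tinman homeobox gene of heart and muscle development. Its signal was 56.0 in replicate 1, with a score of 445 and no place in the thresholded list, and 100 in replicate 2, rank 242 of 1265. This summit was thus in a replicate list for replicate 2 only, and tin had the nearest start site.

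The second mod(mdg4) summit (3R, 21365258 to 21365557; signal 152, rank 389) lay 11993 bp downstream of the mod(mdg4) start site, inside an intron of that gene. It was 80 bp downstream of the start of pre-mod(mdg4)-E and 118 bp upstream of those of pre-mod(mdg4)-C and pre-mod(mdg4)-AB. On the other strand, pre-mod(mdg4)-Y, -X, -AD, -AE, -W, -V and -U share a start site 201 bp away. Signals were 66.7 in replicate 1, rank 508 of 1253, and 86.6 in replicate 2, rank 313 of 1265. Of the 3 summits it was the one thresholded in both replicates.

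The third mod(mdg4) summit (3R, 21373880 to 21374179) had a signal of 52.1 and a score of 882, rank 2004 of 2088, 3371 bp downstream of the start site and 455 bp upstream of pre-mod(mdg4)-AA, -O and -N. It was in neither replicate list, with candidate signals of 30.4 in replicate 1, rank 2609 of 116767, and 26.6 in replicate 2, rank 5147 of 121214. The conservative list did not hold it either, and it was the least supported of the 12 summits. One further candidate past the end of the gene, 27151 bp from the start site, had a higher signal of 59.5, rank 2169 of the ranked list, and a score of 830, and was not in the main list. The mod(mdg4) window held 29 candidates in all.

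CTCF, su(Hw) and BEAF-32, which encode DNA-binding insulator proteins, had no main summit. All 3 had candidates, 9, 12 and 6 in number, and their strongest signals can be set beside those of the 10288 protein-coding genes with a candidate but no main summit. In those genes the strongest candidate had a median signal of 37.6, with quartiles of 31.3 and 44.7.

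BEAF-32 (FBgn0015602, 2R, 14770469 to 14772630, plus strand), which encodes a protein of boundary elements near housekeeping promoters, came closest to the threshold. Its strongest candidate (2R, 14770293 to 14770592) was 26 bp upstream of a start site, with a signal of 62.3, rank 1958 of the ranked list. The score was 717 in the ranked list behind the main one and 967 in that behind the conservative list, where the peak was thresholded at rank 1721 of 2048. Replicate 1 had a candidate of signal 30.6 there, rank 2550 and score 461, and replicate 2 had no candidate in the window at all. The signal was above that of the strongest candidate in 98.3% of the genes without a main summit. A further candidate 507 bp upstream had a signal of 55.8, and the rest had 35.8 or less.

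su(Hw) (FBgn0003567, 3R, 14304455 to 14308589, minus strand) encodes the zinc-finger protein that binds the gypsy insulator. Its strongest candidate had a signal of 53.2, rank 2956, and a score of 668, and lay in a coding exon 1239 bp downstream of the start site. The candidate nearest to the start site, 287 bp upstream of it and 213 bp upstream of Polr2I, an RNA polymerase II subunit gene, had a signal of 42.2. In the replicates' own ranked lists the strongest candidates of the window lay at different sites. In replicate 1 the signal was 20.3, rank 12840, at 681 bp downstream of the start site. In replicate 2 it was 31.9, rank 2555, at 1236 bp downstream, where the pooled candidate lay. At that site replicate 1 had a signal of 17.5, rank 21700. The window thus stood higher in replicate 2 than in replicate 1, and neither replicate list held a peak in it.

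CTCF (FBgn0035769, 3L, 7353578 to 7356713, minus strand) encodes the zinc-finger protein that the fly shares with mammals as an insulator factor. Its strongest candidate had a signal of 42.1, rank 7368, and a score of 68, and lay 4435 bp from the start site, past the end of the gene. The one nearest to the start site was 301 bp downstream of it, in a coding exon, with a signal of 32.7. The strongest candidates of the window in replicates 1 and 2 lay at different sites. In replicate 1 the signal was 27.7, rank 3677, at 1305 bp upstream of the start site. In replicate 2 it was 31.9, rank 2567, at 4441 bp downstream, where the pooled candidate lay. The pooled signal was above that of 66.7% of the genes without a main summit. At su(Hw) that share was 92.7%, so CTCF stood lowest of the 3 genes by pooled signal. The replicates did not share this order. In replicate 1 the strongest su(Hw) candidate had a signal of 20.3, below that of CTCF. In replicate 2 BEAF-32 had no candidate.

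The replicates agreed on most but not all of the 12 summits. Both thresholded lists held 8 of the 12 peaks, against 877 (42.5%) of the 2062 main peaks on the arms. The exceptions were Cp190, in replicate 1 only, M1BP and the strongest mod(mdg4) summit, in replicate 2 only, and the weakest mod(mdg4) summit, in neither. By window, replicate 1 alone called 6 of 10 genes, Chro, Cp190, Trl, pzg, Dref and mod(mdg4), where 13.8% of all genes with a candidate were called. Replicate 2 alone called 6 of the 9 with a candidate, Chro, Trl, pzg, Dref, M1BP and mod(mdg4), where the share was 13.2%. At start sites, replicate 1 called 5 of 9 genes beside 8.65% of all, and replicate 2 called 5 of 9 beside 8.30%. Chro, Trl, pzg and Dref were called at start sites in each replicate.

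The conservative list held 11 of the 12 peaks and added the BEAF-32 peak. It called 8 of 10 genes by window, where 19.5% of all genes were called, and 7 of 10 at start sites, where 10.8% were. The 2 replicate values of a summit are the only measure of its error here, and with 2 samples of 1 group they describe these libraries alone.

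**Figure D3:**
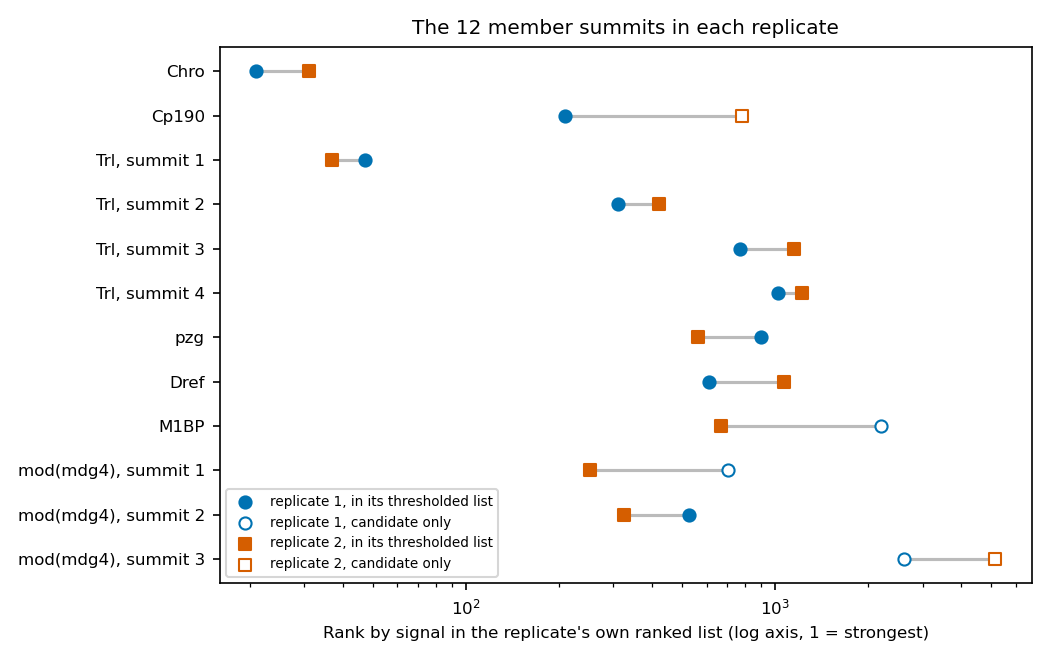
The 12 summits in each replicate: rank by signal in the replicate's own ranked list (log axis, 1 is the strongest), with blue circles for replicate 1, orange squares for replicate 2, filled where the peak is in that replicate's thresholded list and open where it is a candidate only. Chro and the strongest Trl summit are between ranks 21 and 47 in both replicates, while the weakest mod(mdg4) summit is open in both, at ranks 2609 and 5147.

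Base composition varied among the 12 summits. Within 50 bp of a summit the GC content was 34.7% ± 10.2 (SD, n = 12 summits), close to the 35.0% ± 10.7 of all 2062 main summits and below the 46.0% ± 9.54 of the 146366 ranked summits not in the main list. The strongest and the second mod(mdg4) summits were the poorest in GC, at 17.8% and 20.8%. Only 1.60% of main summits were lower than the first of them. Cp190 was at 25.7% and the strongest Trl summit at 29.7%. At the other end, pzg and Dref were at 47.5% and M1BP at 46.5%, near the mean of the ranked summits. Another gene's start site was nearest at these 3 summits and also at all 3 mod(mdg4) summits, which include those poorest in GC. Chro was at 33.7%, and the remaining Trl summits were at 42.6%, 38.6% and 32.7%.

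**Figure D4:**
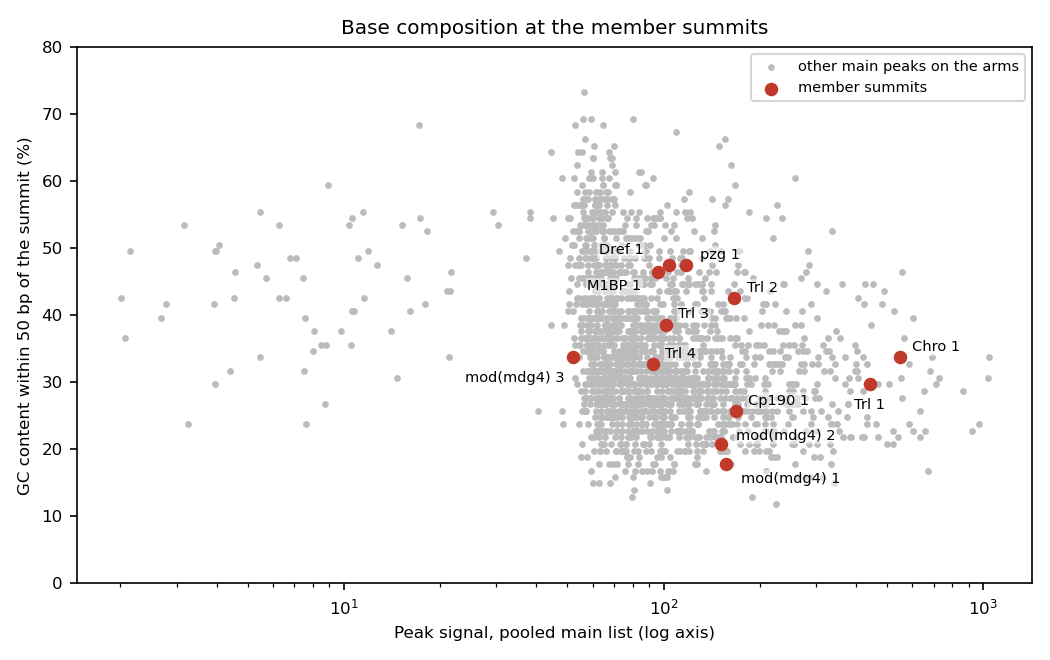
Base composition at the summits: pooled peak signal (horizontal, log axis) against GC content within 50 bp of the summit (vertical, percent), with red points for the 12 summits of the 10 genes and grey points for the other main peaks on the arms. The 2 strongest mod(mdg4) summits lie low, at 17.8% and 20.8%, while pzg, Dref and M1BP form a group at 46.5% to 47.5%.

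The recognition sequences of the factors encoded by these genes were searched on both strands within 50 bp of each summit. The BEAF-32 motif CGATA matched at 3 of the 12 summits: Chro, 4 bp from the summit, pzg, 28 bp away, and the weakest mod(mdg4) summit, 14 bp away. It matched at 13.3% of all main summits and 10.4% of the other ranked summits. Within 100 bp the count was 5 of 12, beside 24.3% of main and 19.9% of ranked summits. In the Chro and pzg sequences above, the capitals TATCG are its complement on the other strand. The Su(Hw) motif TGCATA matched at 1 summit, the second of mod(mdg4), where a match on each strand overlapped the other, 26 and 28 bp from the summit, against 8.83% of main and 6.10% of ranked summits. Within 25 bp it matched at 0 of the 12, beside 4.22% of main summits. The capitals in that sequence span both matches.

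Matches to the other 4 motifs were absent from all 12 windows. The Dref motif TATCGATA, which contains CGATA, was in 1.12% of main and 0.194% of ranked windows. The GAGA factor motif GAGAG was in 9.31% and 12.2%, the CTCF motif AGNNGGCGC in 1.50% and 1.17%, and the M1BP motif GGTCACAC in 0.533% and 0.189%. No GAGAG lay at any of the 4 Trl summits, and no TATCGATA at Dref. A match describes letters in a window, and its absence says only that they are not in that window.

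Genes for other factors of the same kinds gave a point of comparison. There were 30 such genes, 16 for DNA-binding factors and 14 for cofactors. Of the 20 with a candidate within 500 bp of a start site, 3 had a main summit there, beside 11.2% of 10423 protein-coding genes. row, which encodes a zinc-finger partner of HP1c, had a signal of 111, rank 688, with the summit 85 bp upstream. shep, which encodes a negative cofactor of the gypsy insulator, had 99.6, rank 844, at 243 bp upstream. Both were in the 2 replicate lists, whereas the JIL-1 peak, at the gene of a histone H3 kinase that binds Chromator, had a signal of 70.5, rank 1445, 60 bp upstream, and was not. By window the count was 6 of 28, to be read against the 20.0% of all genes given above. No test of the difference between these genes and the 10 was made.

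At CG43689 itself (FBgn0263772, X, 4075743 to 4092237) none of the 4 thresholded lists held a summit. Its window held 30 candidates, and the strongest had a signal of 50.8, rank 3454, at 12235 bp from the start site, below the strongest candidates of su(Hw) and BEAF-32.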

How the data were processed

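ChIP-seq was done on 2 biological replicates of 1 group. The deposited peak lists are on dm6, per the labels. For the aligner and the caller of peaks, names and versions were not given in the sources used here. Every list gives the signal of a peak, a score of up to 1000 and a summit offset, as deposited by the authors. A second score was left aside, as were the final columns that ranked lists carry. The lists are thresholded or ranked by the irreproducible discovery rate, per the deposited file descriptions, for each replicate and for both together, so a pooled peak need not be in both replicate lists. The files give no read depth, so no interval was computed.

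Positions are 1-based. Genes came from the Ensembl 115 annotation, whose coordinates are those of dm6, and bases from the RefSeq genome of the same build. Summits were kept in the gene body or within 2 kb on each side, and a start site was any annotated transcript start, within 500 bp. Of all genes, those with a candidate in the same range were the background. A replicate's value at a main peak is that of the strongest overlapping candidate, with 1 bp or more shared. The genes named are the 10 and those with a start site nearest to or within 500 bp of a main summit of theirs. Also named are the other factor genes called at a start site, and CG43689. Mgat4a and Polr2I are named as neighbours. Adf1, Nup98-96, pita, tst and wmd were chosen after their values were seen. All 30 symbols of the other factor list matched. Python 3.11.15, pandas 2.3.3, numpy 2.4.6 and matplotlib 3.10.9 were used, and the counting was tested on simulated data. The members, lists and motifs were chosen with earlier results of these data known. Alternatives were each replicate list, the conservative list, other windows, a signal minimum and other overlap rules.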

Additional observations from a re-analysis of the deposited data

How the results depend on the processing

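Counting summits in the gene body alone lowered the number of genes called by window from 7 to 3, beside 8.29% of all genes, because the summits of Cp190, pzg, Dref and M1BP lie upstream of the gene. Giving each summit only to the nearest protein-coding start site, chosen after the data were seen, lowered the start site count from 6 to 3. In all other alternatives tried, the counts were within 1.5 times the main ones: with each replicate left out the window count ranged from 6 to 6, the start site count from 5 to 5 and the count of other factor genes from 2 to 2. Requiring both replicate lists gave 5 of 10 genes by window, beside 10.1% of all genes, and 4 of 9 at start sites, beside 5.90%. Of the ranks of strongest summits and the motif counts under other settings, 19 stayed near the main value and 12 moved. The lists differ in length, so these labels do not follow the rank alone. Trl, at rank 37 in the main list and 35 in replicate 2, counted as moved. Cp190, at rank 307 in the main list and 201 in replicate 1, did not. No paired analysis was possible because there is 1 group. Without reads or a control, depth limits what can be said of weak candidates.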

Other observations

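The peaks with the strongest signals at these genes were also narrow. Of the 2062 main peaks on the arms, 1887 (91.5%) were 300 bp wide and 157 (7.61%) were 210 bp or less. The Chro peak was 197 bp and the strongest Trl peak 210 bp, while the other 10 were 300 bp.

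Adf1, a gene for a DNA-binding promoter factor, had 2 main summits in the window. Among them was a summit of signal 554, rank 22, next to the Chro value of 549. That summit was 782 bp downstream of the Adf1 start site and so outside the 500 bp range. Nup98-96 had 3 main summits in the window, among them a summit of signal 195, and pita had 1, of signal 78.6. The start site nearest to the summit of signal 195 was that of tst, at 89 bp. For the pita summit it was that of wmd, at 10 bp.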
